A study of Mus musculus with 18 samples.

Results

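Of the 18 RNA-seq libraries of the series, 6 are compared here, 3 from cells given CK666 and 3 from cells given cytochalasin D (CytoD), chosen by the treatment their labels state. CK666 is a small molecule that holds the Arp2/3 complex inactive, and CytoD is a fungal product that caps the growing ends of actin filaments. The cells were mesenchymal stem cells (MSC) that the study derived from the marrow of male C57BL/6J mice, whose marrow was pooled into 1 primary line, and both drugs were given to untransfected cells with no knockdown. RNA was taken on the day after the drug was added, per the methods of the study. Each drug was used at 1 dose, which the labels do not state, so the comparison is between those doses and not between matched ones. The 3 untreated control libraries of the same experiment serve here only to show on which side of them each drug lies. The other 9 libraries come from a second experiment with cells transfected with a control siRNA, with siRNA to Arp4 (the actin-related subunit of several chromatin remodelers), or with siRNA to Arp4 followed by CK666.

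The Arp2/3 complex starts new actin filaments as branches on the side of existing ones, while formins lengthen unbranched filaments at the end that CytoD caps. The balance of monomeric and filamentous actin controls the coactivators MRTF and YAP, which switch on contractile, adhesion and matrix genes, and in marrow MSC the state of actin is known to bear on the choice between fat and bone cells. Cells also answer shortage of amino acids, misfolded protein or loss of heme through the integrated stress response, in which phosphorylation of the translation factor eIF2 allows more ATF4 protein to be made, and ATF4 in turn switches on genes of amino acid supply.

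Total estimated counts ran from 18075610 to 21272276 in the 6 libraries, and between 12563 and 13118 genes reached 10 counts in each. The replicates are 3 separate culture preparations of 1 line, so every p-value here measures only the spread between preparations. The libraries of CytoD lay close together, with distances of 13.5 to 15.9 units between them on the variance-stabilized scale of the 1000 most variable genes, against 17.3 to 27.1 between CK666 libraries and 45.8 to 52.9 between the drugs. CK666 replicate 1 stood apart from its group in a way that followed transcript length. Its genes in the shortest quintile by transcript length were 0.20 higher (median, log2) than in the other two CK666 libraries and those in the longest quintile were -0.32 on the same scale, where no CytoD library departed by more than 0.05 in either quintile. Without that library 1609 genes were called between the drugs in place of 1778, and counts that depend on it are given both ways below. Calls between the drugs also differed by length. In the shortest quintile 151 genes were called higher in CK666 and 88 lower, and in the longest 104 higher and 180 lower. The median log2 difference between the drugs was 0.10 in the shortest quintile and -0.03 in the longest. The part of transcript length in the results was not tested. Of the 10 mesenchymal markers examined, 8 were at 10 normalized counts or more in each of the 6 libraries, among them Pdgfra, Pdgfrb, Prrx1, Cd44 and both chains of type I collagen. Thy1 was listed at 0 in every library, and Nt5e reached no more than 8.16 counts in them. Of 7 macrophage markers 4, Cd14, Cd68, Csf1r and Lyz2, reached 10 counts in each of the 6 libraries, while Ptprc and Adgre1 were at 0, and the summed level of the 7 was 173 to 249 in CK666 and 351 to 386 in CytoD. Cd14 and Lyz2 were called lower in CK666, though these calls were lost under 2 and 11 alternatives. Of 6 endothelial markers Vwf was the 1 that reached 10 counts in each library, with sums of 72.7 to 245.5 in CK666 and 70.1 to 85.2 in CytoD, while Cdh5 and Emcn were at 0. Of 4 lymphoid markers 3 were at 0 in all 6 libraries, Cd3e and Cd3g among them. The part of such cells in the results was not tested. Of the mesenchymal markers 5 were called lower in CK666 than in CytoD. They were Col1a1, Ly6a, Pdgfra, Pdgfrb and Prrx1, the last 3 only with CK666 replicate 1 included. Cd44 went the other way without being called, with 2003, 2623 and 2396 counts in CK666 against 1372, 1300 and 1423 in CytoD (log2 0.78). The summed level of the list was 86713 to 102019 in CK666 and 173992 to 189186 in CytoD, most of it from both chains of type I collagen. A smaller share of mesenchymal cells and less RNA per cell cannot be told apart in these bulk libraries, and neither was tested.

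The comparison asks which genes stood at different levels under the actin drugs. A gene was called when it differed more than 2-fold (log2 fold change beyond 1 in either direction) with an adjusted p below 0.01 in the Wald test of DESeq2, and a value called higher is higher in CK666. Of 15038 genes tested, 1778 were called, which is 11.8% of them. There were 764 genes higher in CK666 (5.08% of those tested) and 1014 lower (6.74%). Genes higher in CK666 had more counts, with a median of 586 normalized counts over the 6 libraries against 150.2 for genes lower in CK666. The 764 genes held 8.24% ± 0.316 (SD, n = 3) of all counts in CK666, 2.91% ± 0.00979 in CytoD and 4.41% ± 0.0519 in control. The 1014 genes held 2.56% ± 0.291 of the counts in CK666, 7.55% ± 0.0326 in CytoD and 5.79% ± 0.110 in control. Control lay between the drugs for both sets. The sets were chosen for their difference between the drugs, so the gap between the drugs in these shares follows from that choice. The choice also favors a control value between the drugs, and the counts that follow have no share over all genes beside them. Gene by gene, the mean of control lay between the drugs for 574 of the 764 genes higher in CK666 and for 730 of the 1014 genes lower in CK666. Of the former it lay below both drugs for 130 and above both for 60. Of the latter it lay below both for 116 and above both for 168. Without a minimum fold change 4779 genes passed the adjusted p, and the balance then turned, with 46.8% of them lower in CK666 in place of 57.0%.

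**Figure D1:**
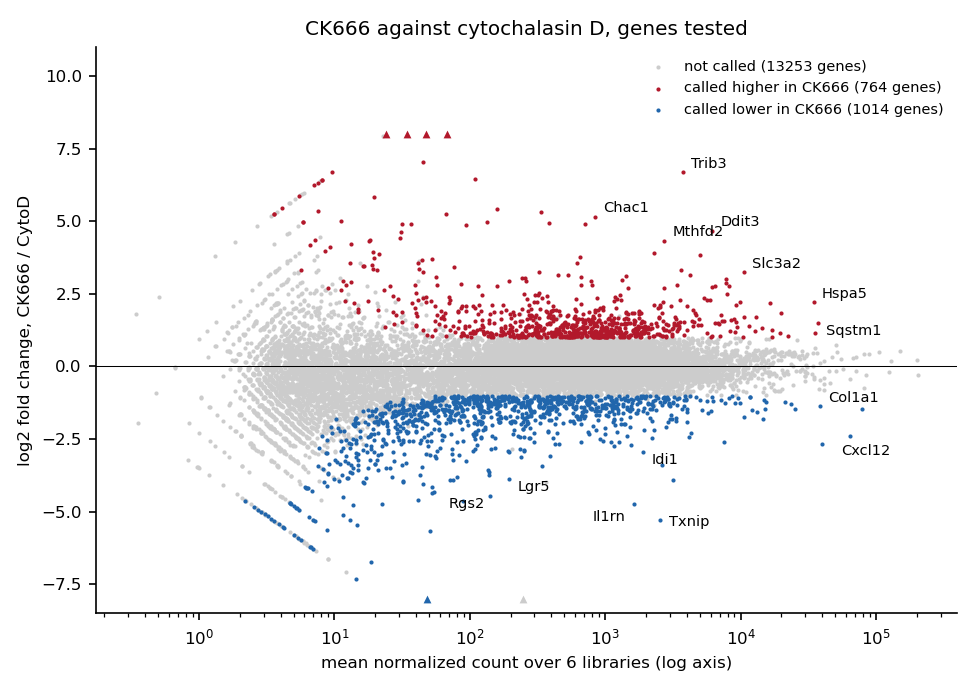
Log2 fold change of CK666 over CytoD (vertical axis) against the mean normalized count over the 6 libraries (log axis) for the genes tested that had a count in these libraries, with genes called higher in CK666 in red, lower in blue and those not called in grey. Triangles mark 6 genes beyond a log2 fold change of 8 in either direction. Trib3, Chac1 and Ddit3 stand at the top among well-counted genes, and Txnip and Il1rn at the bottom.

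Of the 38 gene lists examined, the integrated stress response had the highest median difference. Of 18 factors and feedback genes of this response tested, 16 were called higher in CK666 and none lower, against 5.08% of all genes called higher. Their median log2 difference was 2.34, where that of all genes tested was -0.03. Without CK666 replicate 1 the count was 13, and edgeR called 14. Trib3, a pseudokinase that binds ATF4 and restrains it, had 8849, 6367 and 7086 normalized counts in the CK666 libraries and 84.0, 54.2 and 76.2 in CytoD. The groups were far apart (log2 6.70 ± 0.19, adjusted p = 6.98e-276, SE after the ± sign here and below), and this difference was the largest of the called genes with a mean of at least 100 counts. Chac1, which breaks down glutathione, had 1821, 1512 and 1550.2 counts in CK666 against 39.3, 53.2 and 43.3 in CytoD (5.16 ± 0.19, adjusted p = 4.47e-155). Ddit3, which encodes the stress factor CHOP, stood at 16132, 8798 and 10508 against 436, 485 and 461, with replicate 1 the highest of the CK666 libraries (4.68 ± 0.20, adjusted p = 2.59e-122). Ddit3 shares 68 exon bases with Mars on the opposite strand. Whether the libraries keep the strand was not tested, so its level is uncertain by that much. Ppp1r15a encodes the phosphatase subunit that reverses eIF2 phosphorylation, and it had 6354, 3121 and 3490.0 counts in CK666 and 349, 256 and 266 in CytoD (14.9-fold higher). Atf4 itself, known mainly for control of its translation, differed at the level of its RNA, with 18223, 11570.1 and 13308 against 2126, 1983 and 2189.5 counts (2.77 ± 0.16, adjusted p = 4.32e-68). All 3 libraries of CK666 exceeded all 3 of CytoD at each of these genes. The drug groups did not overlap at 7407 of all 15038 genes tested (49.3%), nor at 1768 of the 1778 called, so this does not set these genes apart.

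The control libraries show on which side these gaps lay. Values of either drug against control share the same 3 control libraries and are set side by side only. Trib3 was at log2 4.66 against control in CK666 and at -2.05 in CytoD. Atf4 stood at 1.43 in CK666 and at -1.34 in CytoD, and Chac1 at 3.01 and -2.15. For Ddit3 the values were 4.32 and -0.36, and for Gdf15, a secreted stress hormone, they were 2.88 and 0.00. CytoD therefore sat near control at Ddit3 and Gdf15 and below it at Trib3, Chac1 and Atf4.

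Other genes known as ATF4 targets serve amino acid supply, from amino acid synthesis to transport and to the charging of tRNA. Of 14 enzymes of amino acid synthesis and one-carbon metabolism tested, 12 were called higher in CK666 and none lower (median log2 difference 2.25). Cth makes cysteine from cystathionine, and its counts were 745, 600.4 and 631 in CK666 and 17.0, 15.5 and 16.5 in CytoD, a 40.4-fold difference (5.34 ± 0.26, adjusted p = 2.22e-88). Mthfd2, the mitochondrial folate enzyme, had 5955, 4743 and 4873 counts against 228, 271 and 272 (4.33 ± 0.13, adjusted p = 8.87e-231). Asns, which makes asparagine, had 12129, 9969 and 9946 against 1531, 1626 and 1665 counts (6.64-fold). None of these 3 genes had overlapping groups, as was so for 49.3% of all genes tested and 1768 of the 1778 called. All 3 enzymes of the serine pathway were called higher, with log2 differences of 1.63 for Phgdh, 1.76 for Psat1 and 2.97 for Psph. Phgdh shares 56% of its 31-base words with other annotated transcripts, so its count is uncertain, and Psph shares 452 exon bases with the highly counted Cct6a on the opposite strand. The list's median against control was 1.44 in CK666 and -1.09 in CytoD. Psat1 differed between the drugs mostly on the side of CytoD, with log2 0.22 against control in CK666 and -1.54 in CytoD.

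Of 12 amino acid transporters tested, 7 were called higher in CK666 and 2 lower. Slc7a11, the cystine importer, had 930.4, 1760.5 and 1431 counts in CK666 and 54.2, 31.9 and 51.5 in CytoD (4.91 ± 0.27, adjusted p = 9.06e-74), with replicate 1 the lowest of the CK666 libraries. Its partner chain Slc3a2 had 24437, 15195 and 17404 against 1933, 2065 and 2007 counts, and here replicate 1 was the highest (3.25 ± 0.16, adjusted p = 1.80e-88). Slc7a5, the importer of large neutral amino acids, stood at 5631, 7305 and 6825 against 582, 684 and 723 (9.93-fold). Against control Slc7a11 was at log2 3.80 in CK666 and -1.10 in CytoD, while Slc7a5 was at 0.54 and -2.77, so that most of the gap at Slc7a5 lay between CytoD and control. The 2 transporters called lower were Slc43a1 and Slc43a2, which carry branched-chain amino acids, at log2 -1.48 and -1.15. Of these, 1 was still called without CK666 replicate 1 or CytoD replicate 3.

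Of the 20 cytosolic aminoacyl-tRNA synthetases, the enzymes that load amino acids onto tRNA, 15 were called higher in CK666, and 14 without CK666 replicate 1. None was lower. Among those called, the difference ran from log2 1.05 for Rars to 2.11 for Iars. Gars, the glycyl enzyme, had 16402, 13873 and 14602 counts in CK666 and 3321, 3524 and 3569 in CytoD (2.11 ± 0.09, adjusted p = 1.40e-107). Wars, the tryptophanyl enzyme, had 6099, 6871 and 6555 against 1548, 1558 and 1514 (4.23-fold). The list's median was log2 0.50 against control in CK666 and -0.91 in CytoD, so the larger distance from control was on the side of CytoD.

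**Figure D2:**
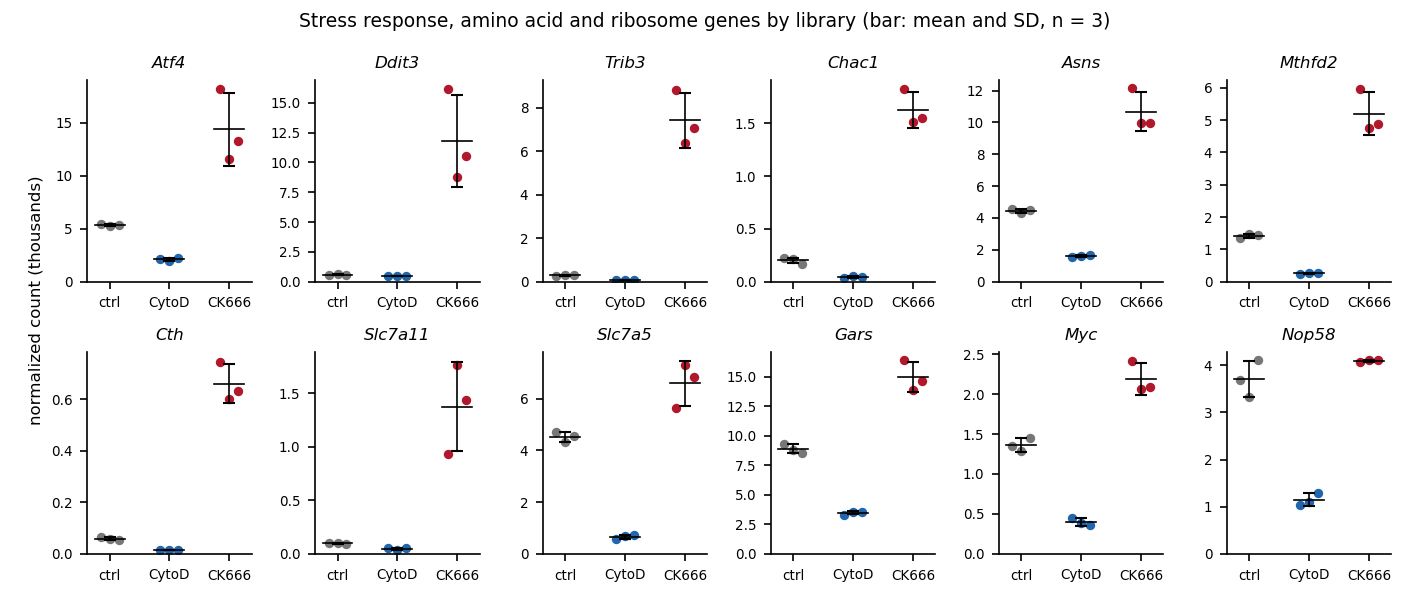
Normalized counts in units of 1000 (vertical axes, each from 0) of 12 genes of the stress response, amino acid supply and ribosome production in each library, with points for the 3 libraries of control, CytoD and CK666 and bars for the mean and SD (n = 3). In every panel all CK666 points lie above all CytoD points, and at Atf4, Asns, Slc7a5, Gars, Myc and Nop58, among others, the CytoD points also lie below control.

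ATF4 and its partners of the C/EBP family bind a composite element whose letters are TGATGNAA. The element was sought on both strands in the 250 bases before the RefSeq start (GRCm38.p6) of 10671 tested genes that had such a sequence. It was found in 28 of 587 genes called higher in CK666 (4.77%), in 12 of 672 genes called lower (1.79%) and in 213 of all 10671 (2.0%). The 4 stretches below are shown because their genes were among those called higher and carry the element, which is in capitals. A match is a description of the sequence and shows no binding.
Chac1 (chr2:119350992-119351228, plus strand): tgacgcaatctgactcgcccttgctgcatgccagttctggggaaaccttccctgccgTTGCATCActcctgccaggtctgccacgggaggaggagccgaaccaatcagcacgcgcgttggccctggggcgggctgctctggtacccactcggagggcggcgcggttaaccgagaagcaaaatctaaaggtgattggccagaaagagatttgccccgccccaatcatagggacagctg
Slc7a11 (chr3:50443615-50443863, minus strand): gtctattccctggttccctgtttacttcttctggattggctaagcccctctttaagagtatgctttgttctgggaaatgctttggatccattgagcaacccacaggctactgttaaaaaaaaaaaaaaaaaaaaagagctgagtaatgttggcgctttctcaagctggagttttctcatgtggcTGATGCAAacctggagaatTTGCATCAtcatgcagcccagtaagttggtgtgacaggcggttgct
Avil (chr10:127000459-127000708, plus strand): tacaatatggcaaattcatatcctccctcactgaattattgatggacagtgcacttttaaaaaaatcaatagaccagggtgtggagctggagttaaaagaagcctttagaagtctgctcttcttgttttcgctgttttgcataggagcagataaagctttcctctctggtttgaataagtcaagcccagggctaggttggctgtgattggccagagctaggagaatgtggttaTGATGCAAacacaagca
Gars (chr6:55037751-55038000, plus strand): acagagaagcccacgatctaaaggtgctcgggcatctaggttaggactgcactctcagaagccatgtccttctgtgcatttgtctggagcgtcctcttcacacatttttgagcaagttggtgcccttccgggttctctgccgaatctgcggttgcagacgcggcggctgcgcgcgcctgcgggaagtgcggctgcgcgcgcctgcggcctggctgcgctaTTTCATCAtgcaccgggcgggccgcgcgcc

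Slc7a11 carries the element 2 times, facing opposite ways, with the nearer copy 39 bases before the start. In Gars it ends 22 bases and in Avil 9 bases before the start. Avil, which encodes the actin-severing protein advillin, had 243, 256 and 279.9 counts in CK666 and 9.57, 7.74 and 7.21 in CytoD (4.99 ± 0.37, adjusted p = 2.91e-40), and it shares 165 exon bases with Tsfm on the opposite strand, so its level is uncertain. Among lists, the element was in 4 of 17 stress response genes, 3 of 12 amino acid enzymes and 3 of 12 tRNA synthetases that had a sequence. The AP-1 element TGANTCA was in 5.28% of genes called higher and 6.40% of those called lower against 4.38% of all. For the antioxidant element TGACNNNGC the shares were 12.9%, 9.08% and 12.1%. The TEAD element GGAATG stood at 9.37%, 14.9% and 10.6%, the CHR element TTTGAA at 10.4%, 12.5% and 10.7%, and the SRF CArG box at 1.02%, 2.38% and 1.21%.

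Ribosome production genes were also higher in CK666, and here CK666 lay near control. Of 22 nucleolar and ribosome assembly genes tested, 17 were called higher in CK666 and none lower, and 16 without CK666 replicate 1. The median log2 difference was 1.39, and the medians against control were 0.07 in CK666 and -1.35 in CytoD. Myc, the transcription factor that drives ribosome production, had 2419.8, 2062 and 2085 counts in CK666 and 451, 390.1 and 358 in CytoD (2.45 ± 0.13, adjusted p = 6.18e-80), with a control mean of 1364. Nop58, a core protein of the box C/D snoRNPs that direct rRNA methylation, had 4065, 4098 and 4114 against 1044, 1098 and 1298 (1.84 ± 0.12, adjusted p = 6.19e-51). Ncl, the nucleolar protein nucleolin, had 28845, 24829 and 27903 against 11498, 12386 and 12518 (2.24-fold). Its control mean of 26175 fell inside the range of CK666.

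Genes of protein folding were called at higher shares than all genes. Of 27 chaperones and degradation factors of the endoplasmic reticulum (ER), 5 were called higher in CK666 (18.5%, against 5.08% of all genes) and none lower, with a median log2 difference of 0.34. Without a minimum fold change 14 passed the adjusted p higher and 1 lower. Hspa5, the main ER chaperone BiP, had 66663, 51195 and 52959 counts in CK666 and 11828, 12125 and 12802 in CytoD, among the largest differences in counts of any gene (2.22 ± 0.12, adjusted p = 3.17e-73). Ero1l, an oxidase that helps form disulfide bonds, had 9931, 12179 and 11692 against 1632, 1780.1 and 1538 (2.77 ± 0.11, adjusted p = 8.87e-142). Hyou1, Herpud1 and Ero1lb were the other 3, at log2 1.58, 1.15 and 1.09. Other members with many counts differed by less than 2-fold. Hsp90b1, the ER form of HSP90, differed by log2 0.32 ± 0.08, adjusted p = 4.75e-04 and calreticulin, Calr, by -0.34 ± 0.12, adjusted p = 0.0127. Xbp1, a transcription factor of the unfolded protein response, was at -0.03 ± 0.11. The ER stress element, CCAAT and CCACG with 9 bases between them on either strand, was in 9 of the 21 members with a sequence against 0.150% of all promoters. Calr is printed as 1 of 8 that carry it without being called, with the element in capitals.
Calr (chr8:84846935-84847181, minus strand): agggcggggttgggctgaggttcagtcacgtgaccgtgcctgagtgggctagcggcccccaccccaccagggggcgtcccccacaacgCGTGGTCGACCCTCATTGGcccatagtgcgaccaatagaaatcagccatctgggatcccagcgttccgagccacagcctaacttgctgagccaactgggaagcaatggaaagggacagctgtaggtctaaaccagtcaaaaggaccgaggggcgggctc

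Heat shock proteins of the cytosol and mitochondria were called both ways, with 3 of 20 called higher and 3 lower, each 15% of the list. Without CK666 replicate 2 there were 5 higher and 3 lower. Hsph1, a nucleotide exchange factor of HSP70, had 2764, 2419 and 2526 counts in CK666 and 769, 704 and 687 in CytoD (1.84 ± 0.10, adjusted p = 2.44e-66). The mitochondrial chaperonin Hspd1 was also higher, at 1.71 log2, though 50% of its 31-base words occur in other transcripts. Inducible HSP70, by contrast, was lower in CK666. Hspa1b had 328, 241 and 258 against 966, 1005 and 948 counts (-1.82 ± 0.14, adjusted p = 6.27e-39) and Hspa1a was at log2 -1.72. Hspa1a and Hspa1b are near copies of each other, so their counts cannot be split with certainty. Hspa9, the mitochondrial HSP70 and not on the list, had 32338, 29711 and 31256 counts in CK666 and 8716, 8535 and 8560.3 in CytoD (1.85 ± 0.07, adjusted p = 6.50e-158).

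Of 21 antioxidant genes under the factor NRF2, 8 were called higher in CK666 (38.1%, against 5.08% of all genes) and none was called lower. Without a minimum fold change 14 passed the adjusted p higher and 2 lower. Gclm, a subunit of the enzyme that starts glutathione synthesis, had 14106, 13329.5 and 13232 counts in CK666 and 2274, 2484 and 2418 in CytoD (2.50 ± 0.10, adjusted p = 4.24e-137). Hmox1, heme oxygenase, had 32054, 23286 and 25854 against 5606, 6126 and 6045 (2.19 ± 0.13, adjusted p = 2.44e-66), and Srxn1, sulfiredoxin, had 15874, 16909.6 and 16199 against 3520.0, 3539 and 3500.2 (4.64-fold). For these genes CytoD lay near control, at log2 -0.26 for Gclm, 0.10 for Hmox1 and -0.41 for Srxn1, where CK666 lay at 2.24, 2.29 and 1.80. Nqo1, a quinone reductase often used as a marker of NRF2, stood at log2 1.43 against control in CK666 and 1.08 in CytoD and was not called between them (0.35). Sqstm1, which encodes the autophagy receptor p62, was the 1 member of 27 lysosome and autophagy genes called, with 66692, 49288 and 49324 counts against 18969.7, 19578 and 19964 (1.5 ± 0.13 on the log2 scale).

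Txnip, which binds thioredoxin and restrains glucose uptake, showed the largest difference among well-counted genes lower in CK666. Its counts were 117, 126 and 139 in CK666 and 4797, 5065 and 5077 in CytoD, a 39.0-fold difference (log2 -5.28 ± 0.11, SE, adjusted p printed by DESeq2 as 0). Control, at a mean of 2450.3, lay between, and the log2 values against it were -4.26 in CK666 and 1.02 in CytoD. Its relative Arrdc4, switched on by the same glucose-sensing factors, differed by log2 -0.99 ± 0.14 and fell just short of 2-fold. Of the 10 alpha-arrestins and glucose-responsive genes tested Txnip was the 1 called, and without CK666 replicate 1 or CytoD replicate 1 there were 2. The Txnip promoter is shown for its carbohydrate response element, 2 boxes of the letters CANGNG with 5 bases between them (in capitals), a pattern found in 1.15% of all promoters.
Txnip (chr3:96557707-96557956, plus strand): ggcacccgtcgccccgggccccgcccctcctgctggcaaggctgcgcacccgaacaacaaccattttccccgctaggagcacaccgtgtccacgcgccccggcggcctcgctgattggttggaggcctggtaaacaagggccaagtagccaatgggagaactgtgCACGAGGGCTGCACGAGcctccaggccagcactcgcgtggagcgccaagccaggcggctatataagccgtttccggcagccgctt

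Sterol synthesis was the list with the most genes lower in CK666. Of 24 members tested 19 were called lower and none higher, against 6.74% of all genes called lower, with a median log2 difference of -1.60. Without CK666 replicate 1 the count was 18. The calls ran along the pathway from Hmgcs1 at its start to Dhcr7 at its end. Idi1, which interconverts the isoprene building blocks, had 428, 474 and 412 counts in CK666 and 3387, 3316 and 3358 in CytoD (-2.94 ± 0.14, adjusted p = 2.10e-100). Hmgcs1, which makes HMG-CoA, had 1087, 1033 and 1084 against 4365, 4632 and 4621 (-2.09 ± 0.08, adjusted p = 2.46e-138). Sqle, a rate-limiting enzyme of the later steps, had 1429, 1477 and 1405 against 4986, 5131 and 5569 (3.64-fold lower). Every CK666 library was below every CytoD library at these 3 genes, where the groups did not overlap at 49.3% of all genes tested and at 1768 of the 1778 called. The list's median was -1.26 against control in CK666 and 0.17 in CytoD. Srebf2, the gene of the factor that switches on this pathway, was not called at log2 -0.70 ± 0.09, adjusted p = 6.65e-14.

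Of 28 matrix structural genes 7 were called lower in CK666 and none higher, with a median log2 difference of -0.42. Thbs1, which encodes the matricellular protein thrombospondin, had 8057, 12695 and 12009 counts in CK666 and 68810.1, 68868 and 69185 in CytoD (-2.66 ± 0.16, adjusted p = 1.63e-62). Its mean in control was 114476, above both drugs. Col3a1, a fibrillar collagen, had 1218, 1071 and 1583 against 6606, 7033 and 7362 (-2.44 ± 0.14, adjusted p = 1.65e-62), and Col1a1 had 19867, 21704 and 23137 against 52074, 56545 and 58246 (-1.37 ± 0.09, adjusted p = 1.77e-49). Lox, which cross-links collagen, stood at 36539, 45785 and 44485 against 115349, 115689 and 117376 (2.75-fold lower). The type VI collagen chains Col6a1 and Col6a2 related to control differently, since CK666 lay near it at log2 -0.23 and -0.43 while CytoD lay at 1.07 and 1.05. For Col1a1, Col3a1 and Lox CytoD was instead near control, at -0.11, 0.36 and -0.10. Fn1, fibronectin, the member with the most counts, was at log2 -0.19 ± 0.16 and was not called. Among 19 matrix proteases and inhibitors 2 were called higher (10.5%, against 5.08% of all genes) and 4 lower (21.1%, against 6.74%). Mmp11, a stromal metalloproteinase, stood at log2 3.44 against control in CK666 and 1.89 in CytoD and had 11301, 10436 and 10584 counts in CK666 and 3441, 3878 and 3713 in CytoD (1.55 ± 0.11, adjusted p = 6.79e-42). Timp3, an inhibitor of such proteases, was higher in CK666 at log2 1.67.

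**Figure D3:**
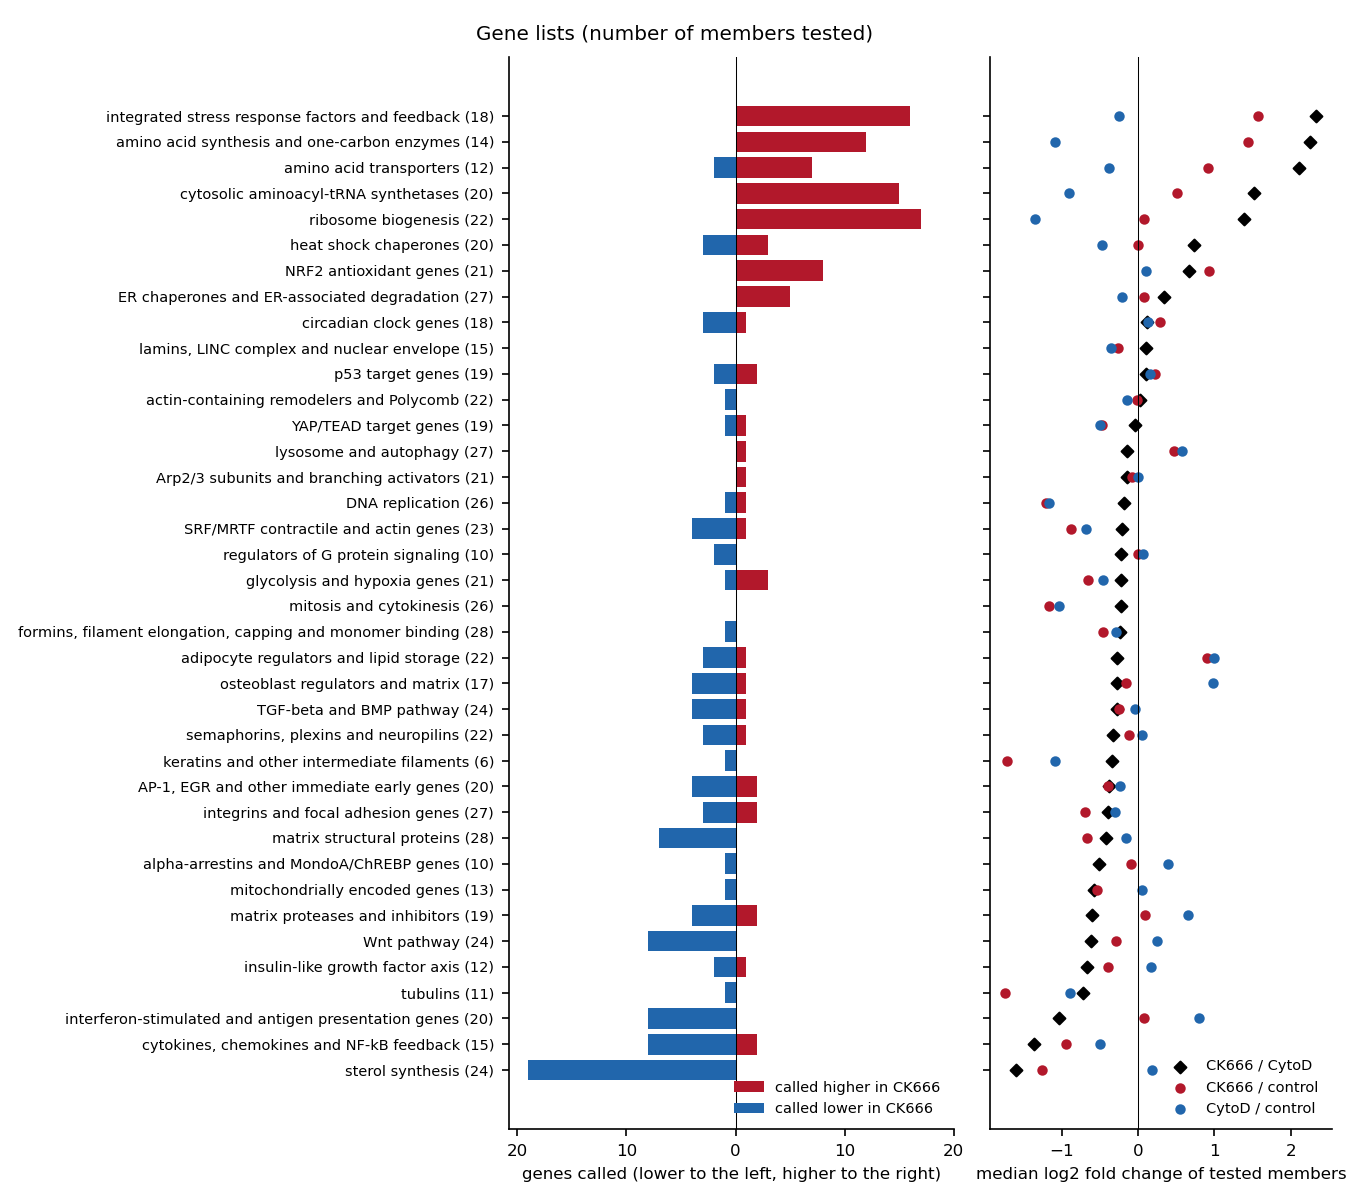
Left, the number of genes called lower (blue, to the left) and higher (red, to the right) in CK666 than in CytoD for each of 38 gene lists, with the number of members tested in brackets. Right, the median log2 fold change of the tested members for CK666 over CytoD (black diamonds), CK666 over control (red) and CytoD over control (blue). Stress response and amino acid lists lead with 16 of 18 and 12 of 14 called higher, and sterol synthesis closes the order with 19 of 24 called lower.

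Several secreted signals were lower in CK666. Cxcl12, the chemokine by which marrow stroma holds blood stem cells, had 19507, 20851 and 21312 counts in CK666 and 105514, 108013 and 109474 in CytoD (-2.39 ± 0.07, adjusted p = 2.71e-232). It stood at log2 -0.75 against control in CK666 and 1.64 in CytoD. Il1rn, the natural antagonist of interleukin 1, had 67.8, 112 and 174 against 2953, 3359 and 3202 (-4.75 ± 0.24, adjusted p = 3.78e-82). In all, 8 of 15 cytokine, chemokine and NF-kB feedback genes were called lower in CK666 and 2 higher (median log2 difference -1.36). Cxcl1 and Ccl2, which draw in neutrophils and monocytes, were at log2 -3.03 and -2.38. Of the 2 called higher, Ptgs2, the inducible cyclooxygenase, had 1162, 1353 and 1109 counts against 84.0, 90.0 and 90.7 (3.77 ± 0.15, adjusted p = 1.16e-134), with 1.10 against control in CK666 and -2.67 in CytoD. The other was the cytokine Lif at log2 2.01, and without CK666 replicate 2 or CytoD replicate 1 there was 1 higher. Of 20 interferon-stimulated and antigen presentation genes 8 were called lower in CK666 and none higher. The guanylate-binding protein gene Gbp2 had 6.88, 1.02 and 7.44 counts in CK666 and 85.0, 75.5 and 94.8 in CytoD (-4.04 ± 0.52, adjusted p = 1.08e-13). This list's median lay at log2 0.08 against control in CK666 and 0.80 in CytoD.

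Wnt pathway genes called between the drugs, 8 of 24 tested, were all lower in CK666, and 9 were called without CK666 replicate 1. Rspo2, a secreted protein that strengthens Wnt signals, had 434, 454 and 479.8 counts in CK666 and 4749.6, 4679 and 4862 in CytoD (log2 -3.38 ± 0.08, SE, adjusted p printed by DESeq2 as 0), and control was at a mean of 4629, beside CytoD. Lgr5, a receptor for R-spondins, had 16.7, 31.6 and 27.0 against 342, 390.1 and 364 (-3.87 ± 0.23, adjusted p = 7.93e-59). The Wnt antagonists Sfrp1 and Sfrp2 were lower too, at log2 -1.77 and -2.28. Rspo3 parted from Rspo2 in its relation to control, since its log2 values were -0.28 in CK666 and 2.53 in CytoD, with counts of 16.7, 15.3 and 13.0 and 94.6, 118 and 102. In the TGF-beta and BMP pathway 1 of 24 genes was called higher (4.17%, against 5.08% of all genes) and 4 lower (16.7%, against 6.74%). Without CytoD replicate 1 there were 2 higher, and without CK666 replicate 1 there were 3 lower. Inhba, which encodes a subunit of activin, was the higher one, with 1139, 1917 and 1643 counts against 574, 579.8 and 533 (1.48 ± 0.17, adjusted p = 4.63e-16). Ltbp2, a latent TGF-beta binding protein of the matrix, was lower at log2 -2.88. Further growth factors outside the lists were lower. Angpt1, the ligand by which stroma steadies blood vessels, had 291, 416 and 479 counts in CK666 and 5877, 5939 and 5912 in CytoD (-3.90 ± 0.16, adjusted p = 2.03e-136). Vegfd, a growth factor of lymphatic vessels, had 81.5, 95.8 and 72.5 against 689.7, 724 and 683 (8.41-fold lower).

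**Figure D4:**
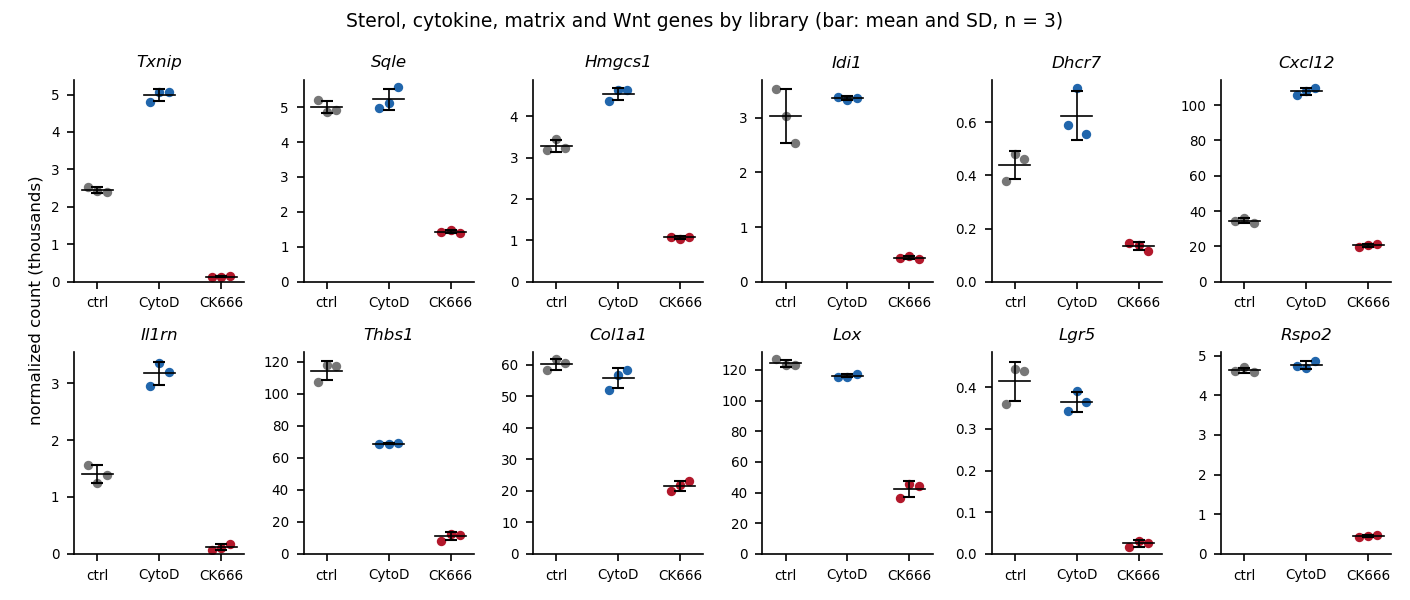
Normalized counts in units of 1000 (vertical axes, each from 0) of 12 genes called lower in CK666, from Txnip and sterol synthesis to cytokine, matrix and Wnt genes, with points for the 3 libraries of control, CytoD and CK666 and bars for the mean and SD (n = 3). CK666 is the lowest group in each panel, and at Txnip, Cxcl12, Il1rn and Hmgcs1 CytoD is above control.

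Of the actin system itself, which both drugs target, some lists had shares of calls below that of all genes and others above. Among 21 subunits and activators of Arp2/3, 1 was called higher (4.76%, against 5.08% of all genes), Arpc5l at log2 1.0 ± 0.18. Its call was lost under 6 of the alternatives tried, among them the omission of CK666 replicate 1 or of CytoD replicate 1 or 2. Arpc5l also shares 62 exon bases with the highly counted Rpl35 on the opposite strand. Actr3, the subunit with the most counts, had 13069, 12325 and 12108 counts in CK666 and 10671, 11165 and 10999 in CytoD (0.19 ± 0.08, adjusted p = 0.0292). Of 28 formin, capping and monomer-binding genes the formin Daam2 was the 1 called, with 99.2, 246 and 225 against 659, 568 and 505 counts, and 1 of this list was higher without CK666 replicate 2 or 3 or CytoD replicate 1. Of 23 contractile and actin genes under SRF and MRTF, 4 were called lower in CK666 (17.4%, against 6.74% of all genes) and 1 higher (4.35%). Without CK666 replicate 1 there were 1 lower and 2 higher. Mylk, myosin light chain kinase, had 398, 767 and 524 counts in CK666 and 2155, 2324 and 2220.4 in CytoD (-1.99 ± 0.21, adjusted p = 1.59e-19). Tagln, the smooth muscle protein transgelin, went the other way with 4139, 2098 and 2621 against 1170.1, 1036 and 1285 (1.34 ± 0.21, adjusted p = 2.92e-09), with replicate 1 the highest, and it shares 108 exon bases with Pcsk7 on the opposite strand. Vcl, vinculin of focal adhesions, was at log2 -1.15 and was not called without CK666 replicate 1, and it shares many exon bases with Ap3m1. Actb was at -0.58 ± 0.09, adjusted p = 3.03e-09 and Actg1 at -0.15 ± 0.10, adjusted p = 0.23, both within 2-fold. The list's medians against control were -0.89 in CK666 and -0.68 in CytoD.

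Of 19 YAP and TEAD targets 1 was called higher and 1 lower (5.26% each, against 5.08% and 6.74% of all genes). These were Wwc1 at log2 2.81 and Arhgef17 at -1.01, and the latter was not called without CK666 replicate 1 or CytoD replicate 2. Ccn2, the connective tissue growth factor and a standard readout of YAP, had a mean of 31708 counts in control, 2475, 2029.6 and 2272 in CK666 and 3355, 3428 and 3584 in CytoD. The log2 value against control was -3.81 with CK666 and -3.20 with CytoD, and the difference between them, -0.61 ± 0.10, adjusted p = 3.72e-09, stayed within 2-fold. Of 15 genes for lamins and the nuclear envelope, DESeq2 and edgeR each called 0, while 6 higher and 4 lower had an unadjusted p below 0.05 in DESeq2. Of 22 remodeler and Polycomb genes Jarid2, a subunit of a Polycomb complex, was the 1 called at log2 -1.35. Lmna was at -0.18 ± 0.12. In other filament systems 1 of 11 tubulins (9.09%) and 1 of 6 intermediate filament genes (16.7%) were called lower. Tuba1a, an alpha tubulin, had 2341, 2027 and 2038 counts in CK666 and 12315, 12692 and 13592 in CytoD (-2.59 ± 0.10, adjusted p = 6.74e-143), but 77% of its 31-base words are shared with other transcripts. Krt19, a keratin, had 116, 73.4 and 84.6 against 405, 365 and 447 (-2.15 ± 0.19, adjusted p = 3.83e-27). Of 27 integrin and adhesion genes 3 were called lower (11.1%, against 6.74% of all genes) and 2 higher (7.41%, against 5.08%). Among them Itga11, a collagen-binding integrin subunit, was lower in CK666 at log2 -1.98 and Itga6, which binds laminin, higher at 1.11. Without CK666 replicate 1 or 2 or CytoD replicate 2 there was 1 higher, and 2 tubulins were lower without CK666 replicate 1 or CytoD replicate 1 or 2.

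**Figure D5:**
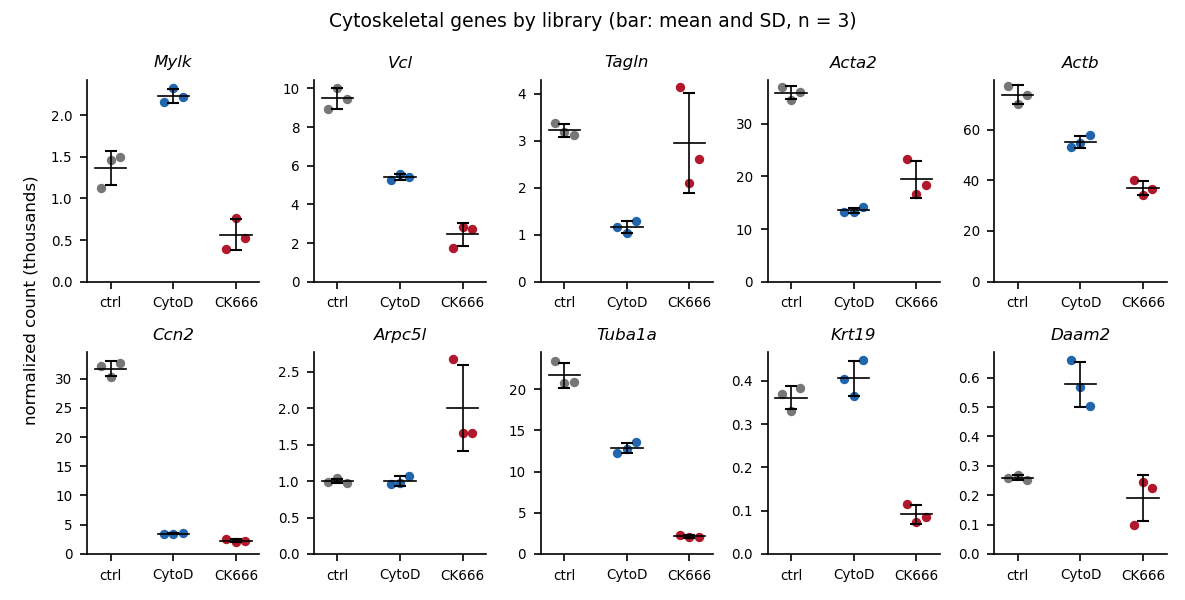
Normalized counts in units of 1000 (vertical axes, each from 0) of 10 cytoskeletal genes, with points for the 3 libraries of control, CytoD and CK666 and bars for the mean and SD (n = 3). Ccn2 and Vcl are below control with both drugs, Mylk is lower and Tagln higher in CK666 than in CytoD, and the CK666 points spread more widely than those of CytoD at Tagln, Arpc5l and Mylk.

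Of 22 adipocyte regulators and lipid storage genes 1 was called higher in CK666 (4.55%) and 3 lower (13.6%, against 6.74% of all genes). Without CK666 replicate 2 or 3 or CytoD replicate 1 there were 5 lower. Klf15, a transcription factor of fat cells, had 75.6, 75.4 and 55.8 counts in CK666 and 7.44, 9.68 and 12.4 in CytoD (2.81 ± 0.51, adjusted p = 3.74e-07). Adipoq, the fat cell hormone adiponectin, had 309, 232 and 153 against 598, 525 and 657 (-1.36 ± 0.29, adjusted p = 2.31e-05), and both drugs were above the control mean of 61.6. The lipase Lipe was lower in CK666 at log2 -1.19. Pparg, the master factor of fat cells, was at 0.08 ± 0.09 between the drugs. The list's median against control was 0.90 in CK666 and 0.99 in CytoD. Of 17 osteoblast genes 1 was called higher (5.88%) and 4 lower (23.5%). Without control replicate 3 there were 2 higher, and without CK666 replicate 1 there were 3 lower. Rgs2, an inhibitor of G protein signals on that list, had 17.7, 7.14 and 12.1 counts in CK666 and 267, 255 and 287 in CytoD (-4.45 ± 0.34, adjusted p = 1.49e-36), and control, at 17.1, lay with CK666. Bmp2, a bone morphogen, was higher in CK666 with 115, 84.6 and 81.8 against 27.6, 30.0 and 29.9 (1.68 ± 0.33, adjusted p = 3.11e-06). Bmp4 was lower at log2 -1.73, with counts of 50.1, 143 and 145 in CK666 and 148, 456 and 519 in CytoD. The groups nearly met, and the call was lost under 4 alternatives, among them the omission of CK666 replicate 1 or 2 or of CytoD replicate 3. Spp1, osteopontin, the member with the most counts, was at -0.28 ± 0.10, and Runx2, the master factor of bone cells, at -0.29 ± 0.23. Summed over 5 mature osteoblast markers, none of them called, the level was higher in CK666, at 138 to 182 counts against 89.3 to 105.5 in CytoD. In control it was 73.5 to 95.2. Of these markers Bglap2 had 108, 76.5 and 68.8 counts in CK666 and 36.1, 44.5 and 42.2 in CytoD, but 95% of its 31-base words occur in other transcripts.

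Of 26 mitosis genes DESeq2 and edgeR each called 0, with 4 higher and 12 lower at an unadjusted p below 0.05 in DESeq2. Without CK666 replicate 2 or 3 or CytoD replicate 3 there was 1 lower. Their median log2 difference was -0.23, and the medians against control were -1.17 in CK666 and -1.03 in CytoD. For the lists that follow, 5.08% of all genes were called higher and 6.74% lower, and list shares near these do not set a list apart. Of 26 replication genes 1 was called higher and 1 lower (3.85% each). Cdt1, which licenses replication origins, was higher in CK666 at log2 1.81, and Ccne2, a cyclin of S phase entry, was lower at -1.22. Ccne2 shares many exon bases with Ints8 on the opposite strand. Among 19 p53 targets 2 were called higher and 2 lower (10.5% each), and without CK666 replicate 1 there were 3 higher. Gadd45a, a stress-induced gene, had 6158, 3618 and 4371 counts in CK666 and 698, 759.9 and 707 in CytoD (2.71 ± 0.18, adjusted p = 2.43e-48). Of 20 immediate early genes 2 were called higher (10%) and 4 lower (20%). Klf2, a factor that responds to shear, was at 119.9, 86.6 and 104 against 447, 450.1 and 465 (-2.13 ± 0.15, adjusted p = 1.32e-41) and Fosl2, a subunit of AP-1, at log2 -1.58. Without CK666 replicate 1 there was 1 immediate early gene higher. Of 18 circadian genes 1 was called higher (5.56%) and 3 lower (16.7%). Per1 and Per2, repressors of the clock, were at log2 -1.94 and -2.02, and Ciart, another repressor, at 2.13. Of 13 mitochondrially encoded genes 1 was called lower (7.69%), mt-Cytb at log2 -1.22. There were 4 lower without CK666 replicate 2 and 2 without CK666 replicate 3 or CytoD replicate 3. On a list of 12 genes of the insulin-like growth factor axis 1 was called higher (8.33%) and 2 lower (16.7%). They were the stanniocalcins Stc2 at 1.79 and Stc1 at -3.45 and the protease Pappa at -1.92. By sign alone 9 of the list were lower and 3 higher, and without a minimum fold change 6 passed the adjusted p lower and 1 higher. Of 21 glycolysis and hypoxia genes 3 were called higher (14.3%), among them Hk2, the hexokinase of growing cells, at 1.33. Bnip3 at -1.06 was the 1 called lower (4.76%). By sign alone 17 of this list were lower in CK666 and 4 higher, and without a minimum fold change 7 passed the adjusted p lower and 3 higher. Of 22 semaphorins, plexins and neuropilins 1 was called higher (4.55%), Sema3c at 1.66, and 3 lower (13.6%), among them Sema6d at -2.58. Of 10 regulators of G protein signaling 2 were called lower (20%), among them Rgs4 at -1.62. Without CK666 replicate 1 or 3 there was 1 of these lower, and without CK666 replicate 1 there were 2 of the glycolysis list lower.

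Some of the largest differences fell in genes outside these lists. Cdsn, a protein of skin cell junctions, had 621, 845 and 759.7 counts in CK666 and 23.4, 29.0 and 20.6 in CytoD (4.93 ± 0.26, adjusted p = 1.01e-79), with control at 21.7. Cyb5r1, an oxidoreductase, had 11470.0, 7850.3 and 8572 against 621, 629 and 697 (3.84 ± 0.15, adjusted p = 1.37e-135). Ecel1, an endothelin-converting enzyme relative, varied among the CK666 libraries at 114, 89.7 and 443 and was at 5.31, 0 and 2.06 in CytoD, so that its log2 fold change carried a wide error (6.47 ± 1.18, adjusted p = 3.15e-07). Angptl6, an angiopoietin-like hormone, stood at 458, 218 and 250.2 against 12.8, 0.97 and 8.24 (5.42 ± 0.54, adjusted p = 2.41e-22). In the other direction Car3, carbonic anhydrase 3, had 18.7, 21.4 and 17.7 counts in CK666 and 254, 263 and 253 in CytoD (-3.74 ± 0.30, adjusted p = 7.63e-34), with control at 35.9. Gper1, the membrane estrogen receptor, was at log2 -3.57, Abcd2, a peroxisomal fatty acid carrier, at -3.44, Gprin3 at -3.12 and Exoc3l4 at -3.62. Emp1, a membrane protein, had 12691, 13882 and 13698 against 37168, 36241 and 37022 counts (2.74-fold lower). Prl2c2, proliferin, was higher in CK666 at log2 1.14, but 90% of its 31-base words occur in other transcripts, and the call was lost without CK666 replicate 1.

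In the second experiment CK666 was given to MSC after siRNA to Arp4, and those libraries share no sample with the comparison above. There 230 of 14098 genes tested were called higher with CK666 (1.63%) and 581 lower (4.12%). Of the genes called higher in CK666 than in CytoD and tested there, 48 of 723 were called higher as well (6.64%) and 17 lower. Of those called lower, 169 of 974 were called lower (17.4%) and 18 higher. Their median log2 changes in the knockdown cells were 0.23 and -0.39, beside 0.02 for all genes tested there. The drug arms of this second experiment had no CytoD, so the comparison of the drugs could not be repeated in it. Slc7a11 rose by log2 2.97 with CK666 in the knockdown cells, Trib3 by 2.67 and Atf3 by 3.51. Txnip was at -3.08 there, Il1rn at -2.86 and Idi1 at -2.03. Sterol genes were called lower at 12 of 23, the NRF2 list higher at 10 of 21, and the stress response list higher at 5 of 17 with 1 lower. Of 20 tRNA synthetases and 22 ribosome genes DESeq2 and edgeR called 0 there, with a median log2 of 0.14 for each list. At an unadjusted p below 0.05, 7 of the synthetases were higher and 2 lower, as were 5 and 0 of the ribosome genes. Cxcl12 was at 0.61, Lgr5 at -0.16 and Cth at -0.79, beside -2.39, -3.87 and 5.34 for CK666 against CytoD. The latter values compare CK666 with another drug and the former with no drug. Against untreated control CK666 stood at -0.75 for Cxcl12 and -4.05 for Lgr5. None of the 3 was called in the knockdown cells, though Cxcl12 passed the adjusted p of the Wald test there (7.0e-04).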

How the data were processed

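RNA-seq was carried out on mouse marrow MSC, with 3 libraries each of control, CK666 and CytoD and 9 of the Arp4 knockdown experiment, and samples were grouped by the labels. The authors deposited estimated counts per gene, made with Salmon 1.2.1 per the submitters' processing notes against GENCODE transcripts of GRCm38. Estimated counts were rounded to whole numbers. DESeq2 1.42.0 (R 4.3.3) was fitted to the 9 libraries of the first experiment with group as the only term, and CK666 was contrasted with CytoD (two-sided Wald test, Benjamini-Hochberg adjustment over all genes tested, unshrunken fold changes). A gene was called at an adjusted p below 0.01 and an absolute log2 fold change above 1. Values after ± on fold changes are standard errors. No table column was left without a sample (0). Alternatives were edgeR 4.0.16 (quasi-likelihood), TMM size factors, a filter of 10 counts in 3 libraries, other sets of libraries, a replicate block and the omission of each library. Counts of exon overlap, shared 31-base words and transcript lengths came from a GENCODE annotation of the same build. The members, gene lists, markers and motifs were chosen with earlier results of these data known. The text names list members and the genes with the largest fold change or count difference. The scripts were tested on simulated data. Sequences are from RefSeq. Totals of 18075610 to 21272276 counts limit genes of few counts, and counts without molecular identifiers do not give independent molecules. Replicate numbers did not pair the samples. Some genes are not reported here.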

Additional observations from a re-analysis of the deposited data

How the results depend on the processing

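Of 138 named genes called between CK666 and CytoD, 120 were called under every alternative that kept the fold rule, 18 lost the call under at least 1 and 0 changed sign. Without a minimum fold change 4779 genes passed, 2542 higher and 2237 lower, with 426 list genes in place of 209. When the null was a 2-fold difference there were 438, 219 higher and 219 lower, with 117 list genes. Both follow from how these alternatives are built. Leaving out 1 library at a time gave 1590 to 1819 genes called, 701 to 784 higher and 858 to 1035 lower, and 199 to 215 list genes. Under the other alternatives these counts stayed within 1.5 times, as with edgeR (733 higher, 853 lower) and TMM size factors (803 higher, 967 lower), which moved the median by 0.02. With the replicate block 1687 genes were called, 728 higher and 959 lower, with 209 list genes. The numbers do not pair the samples, since the correlations of same-numbered libraries ran from -0.37 to 0.14 and 1 of 9 was over 0.1. For CK666 in knockdown cells 811 genes were called, 466 with edgeR, 769 with the replicate block and 575 to 735 without 1 library. The cause of the lower count with edgeR was not tested. Depth limits genes of few counts, such as Gbp2 and Ecel1.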
